A study of Mus musculus with 6 samples.

Results

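The interferon response genes are 38 mouse genes fixed by name, from the antiviral protein gene Rsad2 to the RNA-editing enzyme gene Adar, out of 21881 genes in each deposited table. All 38 were found by symbol in both tables. RNA-seq was carried out on mouse AE9a leukemia cells, which carry loxP-flanked Id1 alleles and the tamoxifen-activated recombinase CreER, of strain C57/B6X129SV. AE9a is a shortened variant of the leukemia fusion protein AML1-ETO. The labels list 2 samples given CBD, described as an Id1 inhibitor, at 15 µM for 16 h, 2 samples given 4-hydroxytamoxifen (4-OHT) at 0.1 µM for 48 h, and 2 control samples. AE9a, the loxP-flanked alleles and CreER are shared by all 3 groups. The labels name no vehicle for the controls, no 4-OHT arm without loxP sites, and no separate cultures or animals behind the samples of a group.

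Each table gives 1 FPKM value per group (fragments per kilobase of transcript, scaled to the size of the library), a level that allows genes of different length to be compared. The CBD table and the 4-OHT table were made separately, and each has its own control column, so there are 4 columns and no spread between samples. The verbs "rose" and "fell" are used only where q was under 0.05 against the control of the same table in the authors' deposited table. A log2 fold is the treated over the control FPKM with 0.1 FPKM added to both. Comparisons with the control column of the other table were not tested.

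Interferons are secreted proteins that cells release on sensing foreign or misplaced nucleic acid. Type I interferons signal through the Ifnar1 and Ifnar2 receptor and the kinases Jak1 and Tyk2 to a transcription factor complex that includes Stat2 and Irf9 and binds the interferon-stimulated response element in target promoters. Interferon gamma acts through Ifngr1 and Ifngr2 on a different element, the gamma-activated site. The genes switched on include the sensors and transcription factors of the pathway, so that the response feeds itself, and effectors that block virus entry, replication or release.

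Id1, the gene flanked by loxP sites, fell with 4-OHT to 0.741 FPKM, against 15.4 FPKM in its control, and had 11.95 FPKM with CBD and 34.2 FPKM in its control (q = 0.133 in the authors' deposited table). Of 14 markers of blood and myeloid progenitors, 10 were tested with CBD, of which Itgam rose and Myb and Runx1 fell, and 7 with 4-OHT, of which 3 rose and 2 fell. Kit lay between 75.0 and 95.6 FPKM in the 4 columns. The leukocyte marker Ptprc had at most 0.417 FPKM in any column, the myeloid granule gene Mpo at most 0.0662 FPKM, and Elane was listed at 0 throughout, while the granule gene Ctsg had 7.32 FPKM with CBD and 1.64 FPKM in its control and passed neither test. The CBD column also held RNA known from brain. Of 23 neuron, oligodendrocyte and astrocyte markers 20 rose with CBD, and their summed level was 551 FPKM with CBD, 117 FPKM in its control, 74.2 FPKM with 4-OHT and 65.2 FPKM in its control. All 3 tested genes of 4 on the Y chromosome rose too, with a sum of 1.97 FPKM with CBD and 0.0393 FPKM in its control. The part of this RNA in the results that follow was not tested.

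With CBD, interferon response genes were mostly higher than in the control. Of the 38, 37 were tested, 17 rose and 1 fell. That is 45.9% rising, against 18.4% of all 13751 tested genes, and 2.70% falling, against 7.74%. The antiviral genes Rsad2 and Rtp4 rose with a log2 fold of 3.49 each and the guanylate-binding protein gene Gbp2 with 2.89. The size and order of such folds depend on the amount added, since the control levels are low: with 1 FPKM added, the log2 folds were 1.75 for Rsad2, 1.41 for Rtp4 and 1.88 for Gbp2. The median log2 fold of the tested members was 1.10, and that of all tested genes was 0.29. Tested genes that reached 1 FPKM in either column of the CBD table had a median log2 fold of 0.19, a filter that also admits genes high only with CBD. For tested genes at 1 FPKM or more in both controls it was 0.04. Each fold with CBD is to be read against the shift of genes at a like level. With CBD the members' levels ran from Bst2 at 142 FPKM to Ifi44 at 0.0678 FPKM. In bulk RNA, fewer cells of a type and less RNA per cell cannot be told apart.

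With 4-OHT, 31 members were tested, of which 16 rose and 2 fell. The rising share was 51.6%, against 27.2% of all 11232 tested genes, and the falling share 6.45%, against 16.9%. The changes were small: the median log2 fold of the tested members was 0.24, against 0.05 for all tested genes, and the 16 rises had log2 folds of 0.19 to 1.18. Rsad2 and Xaf1 were the genes that fell.

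**Figure D1:**
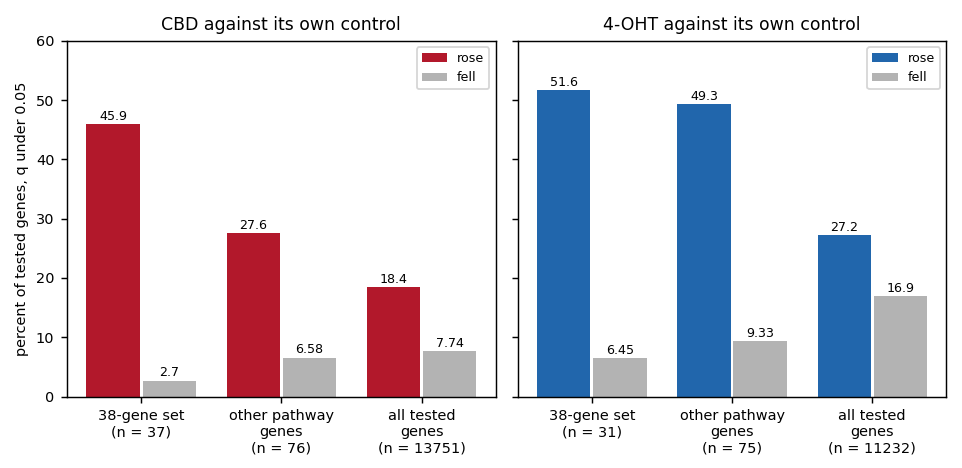
Percent of tested genes with q under 0.05 that rose (coloured bars) or fell (grey bars) with CBD (left) and with 4-OHT (right), for the 38 interferon response genes, the other genes of the interferon pathway and all tested genes; numbers under the bars are the genes tested. The share of interferon response genes that rose was 45.9% with CBD and 51.6% with 4-OHT, against 18.4% and 27.2% of all tested genes. The gene lists were chosen with earlier results of these data known.

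Levels of at least 1 FPKM in each control column were found for 23 of the 38: Irf1, Irf9, Stat2, Isg15, Isg20, Ifit2, Oas1a, Oasl1, Ifi35, Ifih1, Ddx58, Usp18, Bst2, Xaf1, Trim25, Eif2ak2, Igtp, Irgm1, Parp9, Parp14, Samd9l, Trex1 and Adar. The other 15 were under 1 FPKM in one control column or both: Rsad2, Rtp4, Gbp2, Gbp3, Irf7, Ifit1, Ifit3, Mx1, Mx2, Oas2, Oas3, Oasl2, Dhx58, Ifi44 and Cmpk2. Rtp4, Ifit3, Mx1, Mx2, Oas2 and Cmpk2 were tested with CBD, where they were higher, and not with 4-OHT, so a count over tested genes favours genes that are high with CBD. Among the 23, 9 rose with CBD and 1 fell, a rising share of 39.1% against 10.4% of the 9489 tested genes at that level, and a falling share of 4.35% against 11.1%. With 4-OHT 13 of the 23 rose and 1 fell, 56.5% against 28.1% of 9661 genes and 4.35% against 18.7%. The median log2 fold of the 23 was 0.74 with CBD and 0.24 with 4-OHT, against 0.04 in each comparison for all tested genes at that level.

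**Figure D2:**
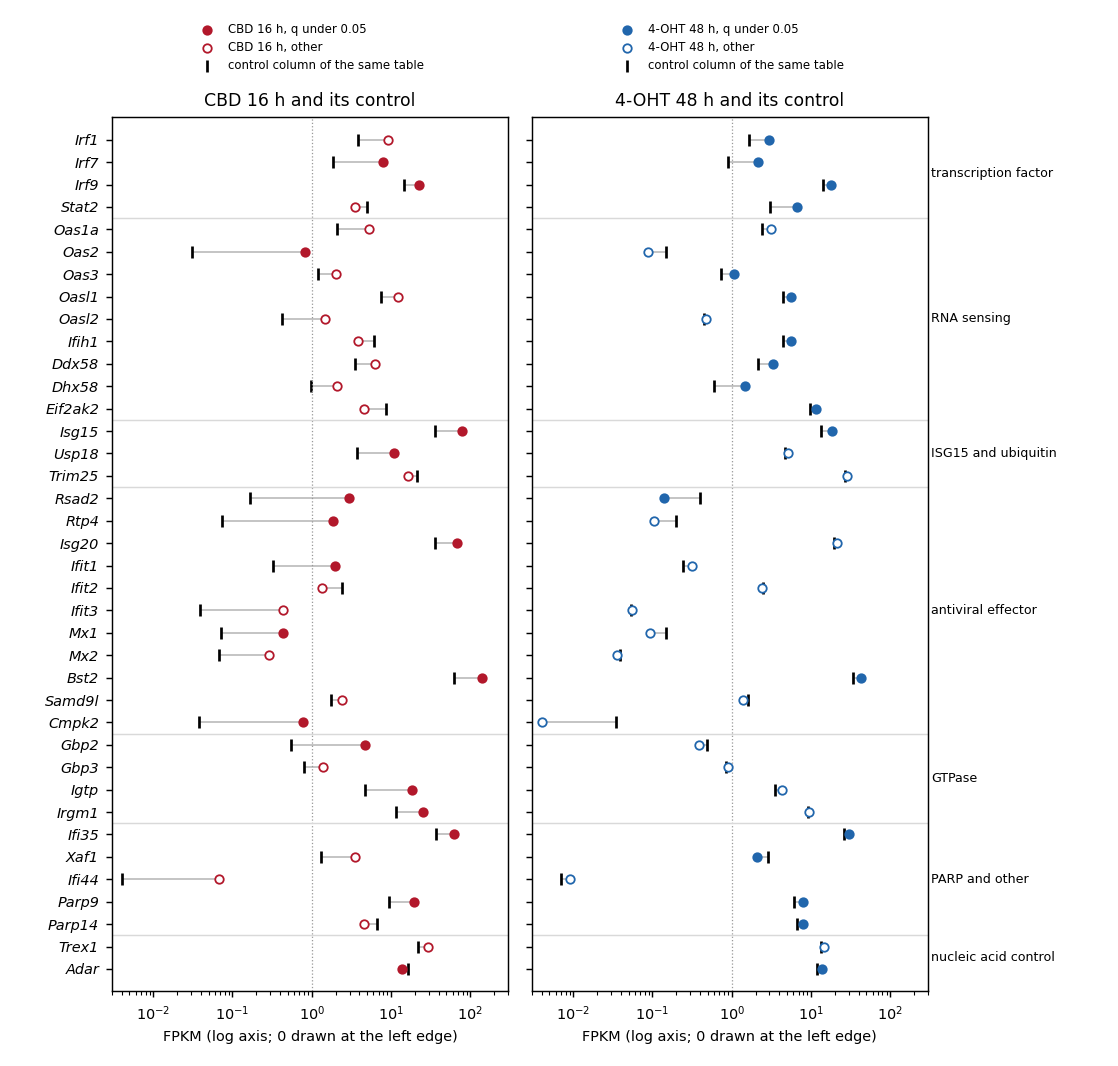
FPKM on a log axis of the 38 genes, grouped by role, with CBD at 16 h (left) and 4-OHT at 48 h (right); circles are the treated column, filled where q was under 0.05, black ticks the control column of the same table, the dotted line is 1 FPKM, and a level of 0 is drawn at the left edge. With CBD the effector genes spread from 0.290 FPKM (Mx2) to 142 FPKM (Bst2), and most circles lie right of their tick; with 4-OHT circles and ticks lie close together.

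By role, the median log2 fold with CBD was 1.63 for the 11 antiviral effectors, 1.54 for the 4 GTPases and 1.10 for the 3 genes of the Isg15 and ubiquitin group. It was 0.94 for the 4 transcription factors, 0.87 for the 4 tested genes of the PARP and mixed group, 0.81 for the 9 RNA-sensing genes and 0.09 for the 2 genes of nucleic acid control. With 4-OHT the median of the tested genes was 0.96 for the transcription factors and between 0.03 and 0.35 for the other groups. Rtp4, Ifit3, Mx1, Mx2 and Cmpk2 were not tested with 4-OHT, so its effector median covers 6 of the 11 genes. They were tested with CBD, where they were higher, so the effector median with CBD favours genes that are high with CBD. The order of the groups depends on the control: against the other control the medians with CBD were 1.80 for the effectors and 1.92 for the GTPases, and those with 4-OHT were 0.25 for the transcription factors and 0.42 for the Isg15 and ubiquitin group. The folds depend on the amount added too. With 0.1 FPKM added, the effector median with CBD is the fold of Mx1. With 1 FPKM added the fold of Mx1 was 0.42 and that of Isg15 was 1.08, and group medians at that setting are not given.

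The transcription factors act at the centre of the pathway. Irf7, the factor that amplifies type I interferon production, rose with CBD to 7.89 FPKM, against 1.87 FPKM in its control, and with 4-OHT to 2.14 FPKM, against 0.891 FPKM in its control, log2 folds of 2.02 and 1.18 (q = 0.00686 and 8.85e-06 in the authors' deposited table). Irf9, the DNA-binding part of the type I interferon complex, rose with CBD to 22.8 FPKM, against 14.5 FPKM, and with 4-OHT to 18.2 FPKM, against 14.1 FPKM. Both genes were therefore above both control columns in each treatment, as were 53.9% of all tested genes with CBD and 31.1% with 4-OHT. Stat2, the partner of Irf9, had 3.55 FPKM with CBD and 4.93 FPKM in its control (q = 0.593 in the authors' deposited table), and rose with 4-OHT to 6.63 FPKM, against 3.01 FPKM, where the authors' deposited table lists q as 0. Irf1, an early factor of the interferon gamma response, had 9.16 FPKM with CBD and 3.84 FPKM in its control, which did not pass (q = 0.0659 in the authors' deposited table), and rose with 4-OHT to 2.99 FPKM, against 1.67 FPKM. Of the 4 factors 2 rose with CBD (18.4% of all tested genes rose) and all 4 with 4-OHT (27.2% of all). These 4 genes are too few to read a difference from. Irf1 with 4-OHT stayed below the 3.84 FPKM it had in the control of the CBD table.

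Sensing of RNA by the cytosolic helicases begins with Ddx58 (RIG-I) and Ifih1 (MDA5), which bind viral double-stranded RNA, and Dhx58 (LGP2), which modulates both. Ddx58 had 6.22 FPKM with CBD and 3.50 FPKM in its control, and 3.35 FPKM with 4-OHT and 2.17 FPKM in its control. Ifih1 had 3.80 FPKM with CBD and 6.12 FPKM in its control, and 5.54 FPKM with 4-OHT and 4.40 FPKM in its control. Dhx58 had 2.08 FPKM with CBD and 0.984 FPKM in its control, and 1.46 FPKM with 4-OHT and 0.602 FPKM in its control. All 3 rose with 4-OHT and none passed the test with CBD, where the fold of Ifih1 points down and those of Ddx58 and Dhx58 point up. Eif2ak2, the kinase PKR that stops translation on binding double-stranded RNA, had 4.52 FPKM with CBD and 8.55 FPKM in its control (q = 0.173 in the authors' deposited table). It rose with 4-OHT to 11.6 FPKM, against 9.82 FPKM, and its log2 fold of -0.90 with CBD was the lowest among the tested members.

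The 2',5'-oligoadenylate synthetases make the messenger that activates RNase L, and the Oasl proteins are their relatives. Oas2 rose with CBD to 0.829 FPKM, against 0.0312 FPKM in its control, and had 0.0873 FPKM with 4-OHT and 0.150 FPKM in its control, where it was not tested. Oas1a had 5.27 FPKM with CBD and 2.07 FPKM in its control, and 3.12 FPKM with 4-OHT and 2.40 FPKM in its control, and passed neither test. These values are uncertain because near-identical Oas1 copies can share reads. Oas3 had 2.05 FPKM with CBD and 1.19 FPKM in its control, and rose with 4-OHT to 1.08 FPKM, against 0.738 FPKM. Oasl1, known in mouse as a translational repressor of Irf7, had 12.3 FPKM with CBD and 7.46 FPKM in its control, and rose with 4-OHT to 5.54 FPKM, against 4.45 FPKM. Oasl2 had 1.48 FPKM with CBD and 0.417 FPKM in its control, and 0.480 FPKM with 4-OHT and 0.447 FPKM in its control. All 5 stood above both control columns with CBD, as did 53.9% of all tested genes, and only Oas2 passed the test. Oas2, Oas3 and Oas1a are neighbours on chromosome 5, at 121180342 to 121199857, 121203107 to 121227668 and 121346266 to 121357534 in mm9. Of the 9 sensing genes 1 rose with CBD (18.4% of all tested genes rose), and of the 8 tested with 4-OHT 6 rose (27.2% of all). Oas3, Oasl1, Ifih1 and Ddx58, 4 of those 6, were below the other control.

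Isg15 is a ubiquitin-like protein that is joined to other proteins, and Usp18 removes it and also restrains the type I receptor. Isg15 rose with CBD to 78.0 FPKM, against 36.3 FPKM in its control, and with 4-OHT to 18.6 FPKM, against 13.3 FPKM in its control. The level with 4-OHT was thus lower than either level in the CBD table. Usp18 rose with CBD to 10.9 FPKM, against 3.75 FPKM, and had 5.08 FPKM with 4-OHT and 4.73 FPKM in its control. Trim25, the ubiquitin ligase that acts with RIG-I, had 16.3 FPKM with CBD and 21.2 FPKM in its control, and 28.4 FPKM with 4-OHT and 27.2 FPKM in its control. Trim25 passed neither test.

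Among the antiviral effectors, 7 of 11 rose with CBD, against 18.4% of all tested genes, and none fell, against 7.74%. Of the 7, Rtp4, Mx1 and Cmpk2 were not tested with 4-OHT, so this count favours genes that are high with CBD. Rsad2, which encodes viperin and makes a chain-terminating nucleotide, rose with CBD to 2.92 FPKM, against 0.167 FPKM in its control, and fell with 4-OHT to 0.138 FPKM, against 0.398 FPKM in its control. Cmpk2, a mitochondrial nucleotide kinase, rose with CBD to 0.772 FPKM, against 0.0381 FPKM, and was listed at 0 with 4-OHT and at 0.0347 FPKM in its control. The log2 folds of Rsad2 are 3.49 with CBD and -1.06 with 4-OHT (q = 7.92e-07 and 0.00112 in the authors' deposited table), and that of Cmpk2 is 2.66 with CBD. The 2 genes are neighbours on chromosome 12, at 27127608 to 27141317 for Rsad2 and 27154080 to 27164702 for Cmpk2 in mm9. Rtp4, a transmembrane protein gene induced by interferon, rose with CBD to 1.85 FPKM, against 0.0731 FPKM, and had 0.104 FPKM with 4-OHT and 0.197 FPKM in its control, where it was not tested. These 3 genes were under 0.5 FPKM in every column but CBD.

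The Ifit proteins bind foreign RNA, and the Ifit genes lie side by side on chromosome 19, where Ifit2 spans 34625184 to 34651024, Ifit3 34658019 to 34663472 and Ifit1 34715379 to 34724499 in mm9. Ifit1 rose with CBD to 1.99 FPKM, against 0.323 FPKM in its control, and had 0.316 FPKM with 4-OHT and 0.240 FPKM in its control. Ifit3 had 0.429 FPKM with CBD and 0.0392 FPKM in its control (q = 0.0823 in the authors' deposited table), and 0.0547 FPKM with 4-OHT and 0.0537 FPKM in its control. Ifit3 is uncertain because of its close copy Ifit3b. Ifit2 had 1.35 FPKM with CBD and 2.40 FPKM in its control, and 2.43 FPKM with 4-OHT and 2.50 FPKM in its control. The neighbours thus differed: Ifit2 was the highest of the 3 in both control columns and the only one with a fold below 0 with CBD.

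Mx1, a dynamin-like GTPase that blocks influenza virus and is defective in most inbred mouse strains, rose with CBD to 0.433 FPKM, against 0.0727 FPKM in its control, and had 0.0941 FPKM with 4-OHT and 0.149 FPKM in its control. Mx2, its neighbour, had 0.290 FPKM with CBD and 0.0683 FPKM in its control, and 0.0361 FPKM with 4-OHT and 0.0390 FPKM in its control. Both were under 0.5 FPKM in every column. Bst2, tetherin, which holds budding virus at the membrane, rose with CBD to 142 FPKM, against 62.0 FPKM, and with 4-OHT to 42.6 FPKM, against 34.5 FPKM, log2 folds of 1.19 and 0.31 (q = 0.000136 and 0.00162 in the authors' deposited table). Isg20, an exonuclease of single-stranded RNA, rose with CBD to 69.0 FPKM, against 35.5 FPKM, and had 21.2 FPKM with 4-OHT and 19.7 FPKM in its control. Samd9l, a translation inhibitor, had 2.39 FPKM with CBD and 1.75 FPKM in its control, and 1.38 FPKM with 4-OHT and 1.61 FPKM in its control, and passed neither test.

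The interferon-induced GTPases act on the vacuoles of intracellular bacteria and parasites. Gbp2 rose with CBD to 4.67 FPKM, against 0.544 FPKM in its control, and had 0.383 FPKM with 4-OHT and 0.489 FPKM in its control. Gbp3, next to it on chromosome 3, had 1.40 FPKM with CBD and 0.790 FPKM in its control, and 0.893 FPKM with 4-OHT and 0.844 FPKM in its control. The log2 fold of Gbp2 with CBD was thus 2.89, while that of Gbp3 was 0.75 and did not pass. Igtp (Irgm3) rose with CBD to 18.7 FPKM, against 4.76 FPKM, a log2 fold of 1.95, and had 4.32 FPKM with 4-OHT and 3.48 FPKM in its control (q = 0.0560 in the authors' deposited table). Irgm1 rose with CBD to 25.4 FPKM, against 11.6 FPKM, and had 9.41 FPKM with 4-OHT and 9.19 FPKM in its control. In this group 3 of 4 rose with CBD, against 18.4% of all tested genes. None of the 4 passed with 4-OHT, where 27.2% of all tested genes rose, and 4 genes are too few to read a difference from.

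Parp9 and Parp14 encode ADP-ribosyltransferase family proteins of macrophage interferon signalling and lie near each other on chromosome 16. Parp9 rose with CBD to 19.3 FPKM, against 9.55 FPKM in its control, and with 4-OHT to 7.94 FPKM, against 6.09 FPKM in its control. Its gene overlaps Dtx3l, which passed neither test. Parp14 had 4.58 FPKM with CBD and 6.73 FPKM in its control, and rose with 4-OHT to 7.89 FPKM, against 6.76 FPKM. The log2 fold of Parp14 with CBD was -0.54 and that of Parp9 was 1.01, so the neighbours lay on opposite sides of 0. Ifi35, a leucine zipper protein gene, rose with CBD to 62.6 FPKM, against 37.5 FPKM, and with 4-OHT to 29.9 FPKM, against 25.8 FPKM. Xaf1, an antagonist of the apoptosis inhibitor XIAP, had 3.47 FPKM with CBD and 1.30 FPKM in its control (q = 0.168 in the authors' deposited table), and fell with 4-OHT to 2.11 FPKM, against 2.84 FPKM. Ifi44 was not tested in either table: it had 0.0678 FPKM with CBD and was listed at 0 in its control, and had under 0.01 FPKM in the 4-OHT table.

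Adar and Trex1 keep the cell's own nucleic acid from setting off the sensors, Adar by editing double-stranded RNA and Trex1 by degrading DNA. Adar fell with CBD to 13.9 FPKM, against 16.4 FPKM in its control, a log2 fold of -0.24 (q = 0.0302 in the authors' deposited table), and rose with 4-OHT to 13.8 FPKM, against 12.1 FPKM in its control. The 4 levels of Adar lie within 12.1 and 16.4 FPKM, and its CBD level is above the control of the other table. Its locus overlaps that of Chrnb2, which passed neither test. Trex1 had 29.5 FPKM with CBD and 22.2 FPKM in its control, and 14.5 FPKM with 4-OHT and 13.6 FPKM in its control, and passed neither test.

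The control columns themselves differed for many of these genes. Of the 23 members that reached 1 FPKM in each, 16 were higher in the control of the CBD table than in that of the 4-OHT table, or 69.6%, against 48.8% of all 9716 genes at that level. The median log2 ratio of the control of the CBD table over that of the 4-OHT table was 0.44 for the members and -0.01 for all genes. Isg15 and Bst2 show the size of it, at 36.3 and 62.0 FPKM in the control of the CBD table, against 13.3 and 34.5 FPKM in the control of the 4-OHT table. Irf1, Isg15 and Xaf1, 3 of the 23, differed by 2-fold or more, as did 8.96% of all genes. The number of control samples averaged into each column is not given in the sources used here, so this difference has no test.

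Set against both control columns, CBD and 4-OHT gave different counts, a contrast that does not separate the treatments from the control difference. For CBD, the log2 fold against the other control is the fold against its own control plus the log2 ratio of the controls given above. For 4-OHT it is the fold against its own control minus that ratio. The ratio's median was 0.44 for members that reached 1 FPKM in each control, which raised such folds with CBD and lowered them with 4-OHT. All 17 members that rose with CBD were also above the control of the other table, as were 2494 of the 2533 genes that rose over all (98.5%). The median log2 fold of the tested members with CBD was 1.46 against the other control. With 4-OHT, 6 of the 16 that rose were also above the other control, or 37.5%, against 51.2% of the 3055 genes that rose over all. These 6 are Irf7, Irf9, Stat2, Dhx58, Eif2ak2 and Parp14. Irf1, Isg15, Oas3, Oasl1, Ifi35, Ifih1, Ddx58, Bst2, Parp9 and Adar rose against their own control and were below the other. Xaf1 fell against its own control and was above the other, while Rsad2 was below both. The median log2 fold of the tested members with 4-OHT went to -0.14 against the other control.

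**Figure D3:**
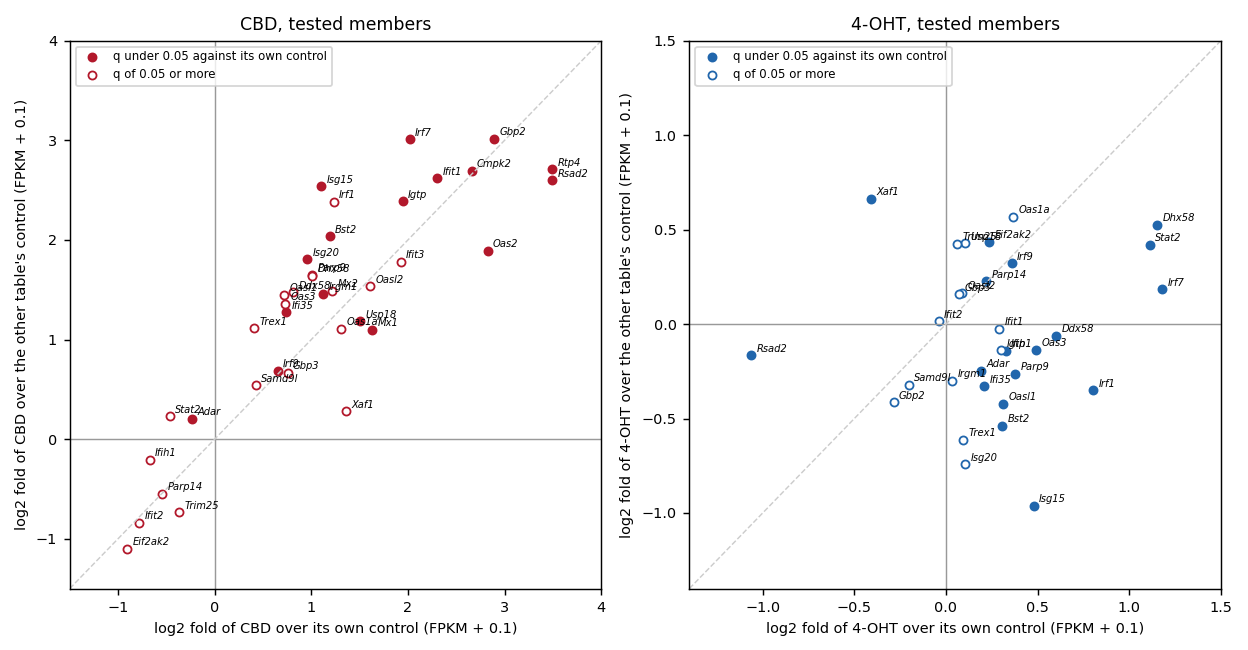
Log2 fold of each tested gene over the control of the same table (horizontal) and over the control of the other table (vertical), for CBD (left, 37 genes) and 4-OHT (right, 31 genes); filled points passed the authors' test against their own control, and the dashed line marks equal folds. With CBD all 17 genes that rose lie above 0 on both axes; with 4-OHT 10 of the 16 that rose lie below 0 on the vertical axis.

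Some markers of other cell types were higher in the CBD column, beside the effectors that were under 1 FPKM in both controls. Of 12 microglia and macrophage markers, 9 were tested and 2 rose with CBD, where 18.4% of all tested genes rose. The summed level of the 12 was 20.3 FPKM with CBD, 2.91 FPKM in its control, 3.98 FPKM with 4-OHT and 3.19 FPKM in its control. C1qb, C1qc, Tmem119 and P2ry12 were listed at 0 in both control columns and did not pass the test with CBD. Cx3cr1 had 1.01 FPKM with CBD and 1.71 FPKM in its control. Cd68 had 1.17 FPKM with CBD and 1.10 FPKM in its control, and Marco was listed at 0 with CBD. For 6 plasmacytoid dendritic cell markers the sum was 9.59 FPKM with CBD and 2.59 FPKM in its control, with 1 of 3 tested rising. That gene, Pacsin1, gave 6.66 FPKM of the sum with CBD and 0.0643 FPKM in its control, while Tcf4 had 1.76 FPKM with CBD and 2.41 FPKM in its control and Klk1 was listed at 0 in all 4 columns. For 6 endothelial and stromal markers it was 20.9 FPKM with CBD and 1.98 FPKM in its control, with 3 of 4 tested rising, and most of the sum was Sparc, at 18.5 FPKM with CBD and 1.60 FPKM in its control. Of 8 T and NK cell markers, 2 of 3 tested rose, the sum was 109 FPKM with CBD and 24.6 FPKM in its control. Nearly all of it came from the 2 genes that rose, Nkg7, at 93.6 FPKM with CBD and 24.5 FPKM in its control, and Thy1, at 14.3 FPKM with CBD and 0.0654 FPKM in its control, and Cd3e was listed at 0 in all 4 columns. The B cell marker Ms4a1 was listed at 0 in all 4 columns too. Whether these RNAs came from the cell types they are listed under or went with the brain RNA was not tested. Their part in the rises with CBD was not tested either.

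The folds with CBD also went with transcript length. The 7 tested members with a fold below 0 (Stat2, Ifit2, Ifih1, Trim25, Eif2ak2, Parp14 and Adar) have longest annotated transcripts of 3818 to 7417 bp, with a median of 5470 bp. The other 30 span 756 to 5330 bp, with a median of 2557 bp. Across the 23 members that reached 1 FPKM in each control, Spearman's rho between length and fold was -0.63, and it was -0.36 across 9366 genes at that level. These points share 1 table and are a description. The median fold by length of tested genes that reached 10 FPKM in each control was then taken off. This left the log2 fold of Rsad2 at 3.62 and that of Gbp2 at 2.80, though both were under 1 FPKM in each control, below the genes behind the trend. The same step lowered the log2 folds of the short Isg15 and Bst2 to 0.59 and 0.68. Adar and Parp14 went to 0.12 and 0.00, Eif2ak2 stayed at -0.74 and Ifit2 at -0.69. All 17 genes that rose kept a fold above 0, and the median of the tested members was 0.98. Across all 37 tested members the rho with CBD was -0.40, and across the 31 tested with 4-OHT it was -0.09.

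**Figure D4:**
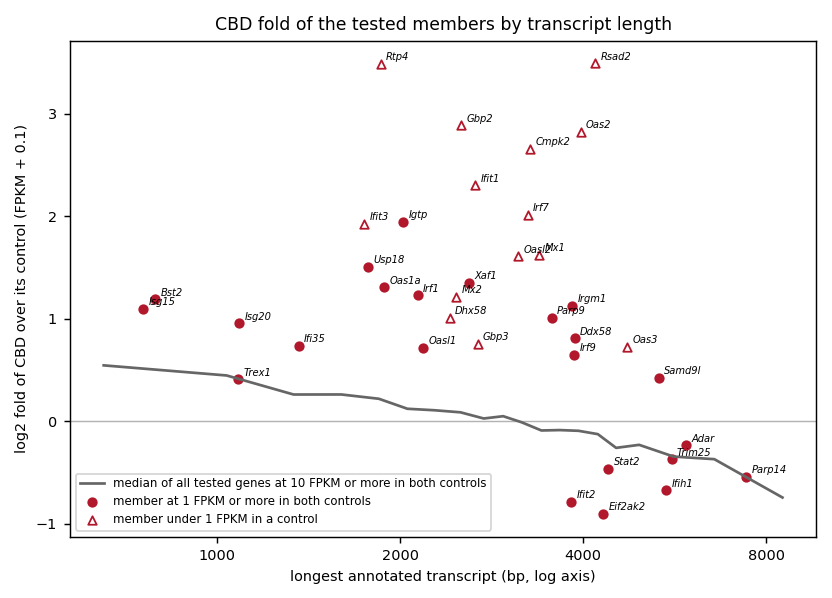
Log2 fold with CBD over its own control against the longest annotated transcript in bp (log axis) for the 37 tested interferon response genes; filled circles are genes that reached 1 FPKM in each control, triangles the others, and the grey line the median by length of tested genes that reached 10 FPKM in each control. The line drops below 0 for long transcripts, and the 7 genes with a fold below 0 all have transcripts of 3818 bp or more.

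The promoters are shown because the response element that defines these targets can be read in them. RefSeq windows of GRCm38.p6, from 250 bases before to 50 bases after the start site, were matched for 30 of the 38 genes. The core of the interferon-stimulated response element, searched on both strands as GAAA, any 2 bases and GAAA again, was present for 15 of the 30 genes (50%) and for 3.99% of 27025 genes with a window. The gamma-activated site core, searched as TTCNNNGAA, which reads the same on both strands, was present for 9 of the 30 (30.0%) and for 9.55% of all. Matches of both motifs overlapped in 1 window, that of Bst2. By response, 7 of 12 genes that rose with CBD held the first motif, as did 8 of 17 other tested genes and 7 of 13 genes that rose with 4-OHT. The windows of Irf7, Irf9, Cmpk2, Isg20 and Ifi35, which rose with CBD, did not hold these letters. Of the genes that rose with CBD and hold the motif, the 5 with the highest folds are printed 5′ to 3′ on the gene's strand, with the first motif or its reverse complement in capitals.
Rsad2 promoter, chr12:26456403-26456702, minus strand: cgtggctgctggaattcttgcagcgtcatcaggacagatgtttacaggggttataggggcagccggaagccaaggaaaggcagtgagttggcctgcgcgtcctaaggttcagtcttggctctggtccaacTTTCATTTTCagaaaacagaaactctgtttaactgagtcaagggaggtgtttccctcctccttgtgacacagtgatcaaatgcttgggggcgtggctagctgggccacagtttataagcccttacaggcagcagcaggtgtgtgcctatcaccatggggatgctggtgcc
Gbp2 promoter, chr3:142620413-142620712, plus strand: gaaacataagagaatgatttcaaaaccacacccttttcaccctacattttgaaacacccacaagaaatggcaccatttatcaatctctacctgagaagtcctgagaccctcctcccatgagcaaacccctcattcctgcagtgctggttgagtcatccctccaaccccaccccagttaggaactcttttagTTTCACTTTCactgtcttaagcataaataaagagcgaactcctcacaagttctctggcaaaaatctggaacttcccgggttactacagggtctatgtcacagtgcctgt
Ifit1 promoter, chr19:34640639-34640938, plus strand: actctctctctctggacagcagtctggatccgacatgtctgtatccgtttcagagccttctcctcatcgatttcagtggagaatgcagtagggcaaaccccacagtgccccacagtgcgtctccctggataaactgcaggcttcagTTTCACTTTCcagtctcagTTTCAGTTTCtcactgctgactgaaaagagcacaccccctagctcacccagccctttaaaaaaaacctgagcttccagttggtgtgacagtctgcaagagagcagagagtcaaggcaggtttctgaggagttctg
Igtp promoter, chr11:58199306-58199605, plus strand: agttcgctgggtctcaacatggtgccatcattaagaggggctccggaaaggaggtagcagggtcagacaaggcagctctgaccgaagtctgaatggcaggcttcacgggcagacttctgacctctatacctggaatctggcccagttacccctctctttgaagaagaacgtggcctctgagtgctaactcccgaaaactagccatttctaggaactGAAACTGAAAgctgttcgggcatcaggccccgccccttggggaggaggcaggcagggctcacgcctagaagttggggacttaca
Bst2 promoter, chr8:71537423-71537722, minus strand: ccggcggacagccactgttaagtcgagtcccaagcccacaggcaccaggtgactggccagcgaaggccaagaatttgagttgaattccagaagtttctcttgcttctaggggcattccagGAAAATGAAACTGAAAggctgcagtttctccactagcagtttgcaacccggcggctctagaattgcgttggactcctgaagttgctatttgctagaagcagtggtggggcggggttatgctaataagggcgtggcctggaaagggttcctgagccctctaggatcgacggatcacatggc

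The motif reads on the opposite strand in Rsad2, at bases -120 to -111 from the start site, in Gbp2, at -59 to -50, and in Ifit1, which holds 2 copies at -104 to -95 and -85 to -76. Igtp holds 1 copy on the gene's own strand at -34 to -25, and Bst2 has 2 copies on its own strand that overlap, from -130 to -115. The levels with CBD of these 5 genes ran from 1.99 FPKM (Ifit1) to 142 FPKM (Bst2). They are printed because they hold the motif, so a match in each was fixed in advance.

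Other genes of the interferon pathway were taken from a list of 106 symbols, 102 of which had a row. With CBD 21 of 76 tested rose (27.6%, against 18.4% of all tested genes) and 5 fell (6.58%, against 7.74%). With 4-OHT 37 of 75 rose (49.3%, against 27.2%) and 7 fell (9.33%, against 16.9%). All 21 that rose with CBD were above the other control as well, as were 98.5% of all genes that rose. With 4-OHT 12 of the 37 were, against 51.2% of all genes that rose. The 10 interferon genes of the list (among them Ifnb1 and Ifng) were not tested in either table: 9 were listed at 0 with CBD and all 10 with 4-OHT, and the highest level in any column was 0.289 FPKM, of Ifna4 in the control of the 4-OHT table.

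The receptors and kinases named here were detected in all columns. Ifnar1 had 7.12 FPKM with CBD and 6.25 FPKM in its control, and 7.20 FPKM with 4-OHT and 6.52 FPKM in its control. Ifnar2 rose with CBD to 46.0 FPKM, against 28.9 FPKM (q = 0.0492 in the authors' deposited table), and fell with 4-OHT to 25.7 FPKM, against 29.4 FPKM. Ifngr1 had 7.998 FPKM with CBD and 6.72 FPKM in its control, and rose with 4-OHT to 3.65 FPKM, against 1.97 FPKM. Ifnar1 passed neither test, and the control columns of Ifngr1 differ by more than its rise with 4-OHT. Jak1 had 43.4 FPKM with CBD and 42.1 FPKM in its control, and fell with 4-OHT to 55.0 FPKM, against 61.1 FPKM. Tyk2 had 13.04 FPKM with CBD and 13.5 FPKM in its control, and rose with 4-OHT to 8.99 FPKM, against 6.12 FPKM. Irf3, which switches on the first interferon genes, had 26.6 FPKM with CBD and 21.8 FPKM in its control, and 19.9 FPKM with 4-OHT and 18.5 FPKM in its control. Irf8, a factor of macrophages and dendritic cells, had 0.111 FPKM with CBD, the highest of its 4 levels, and was not tested.

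Of the 8 pathway genes with the largest changes with CBD, 7 rose and 1 fell. Ifitm1, a membrane protein that blocks virus entry, rose with CBD to 115 FPKM, against 8.01 FPKM in its control, and fell with 4-OHT to 4.64 FPKM, against 13.4 FPKM in its control. Iigp1, a GTPase of the same family as Igtp, rose with CBD to 2.50 FPKM, against 0.0643 FPKM, and Irgm2, another, to 10.7 FPKM, against 3.34 FPKM. Socs3, an inhibitor of JAK kinases, rose with CBD to 8.71 FPKM, against 1.70 FPKM. These were log2 folds of 3.83 for Ifitm1, 3.98 for Iigp1, 1.65 for Irgm2 and 2.29 for Socs3, so that Iigp1 and Ifitm1 exceeded Rsad2. Ifitm3 rose with CBD to 17.1 FPKM, against 3.65 FPKM, Lgals3bp to 6.495 FPKM, against 2.09 FPKM, and the granule protein gene Tdrd7 to 11.3 FPKM, against 3.80 FPKM. The gene that fell was Mb21d1, listed as E330016A19Rik and encoding the DNA sensor cGAS, which had 3.19 FPKM with CBD and 10.8 FPKM in its control, and 8.30 FPKM with 4-OHT and 8.02 FPKM in its control. Ifitm1 repeats the pattern of Rsad2, higher with CBD and lower with 4-OHT than either control.

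With 4-OHT the largest changes among pathway genes, besides Ifitm1 and Ifngr1, were in Irf5, Psmb9, Uba7, Il28ra, Cd274 and Trim34a. Irf5, a factor downstream of Toll-like receptors, rose to 1.59 FPKM, against 0.746 FPKM in its control, and the immunoproteasome gene Psmb9 to 54.9 FPKM, against 29.9 FPKM. Uba7, the enzyme that activates Isg15, rose to 12.8 FPKM, against 6.98 FPKM, and the checkpoint ligand gene Cd274 to 4.86 FPKM, against 3.11 FPKM. Trim34a rose to 2.13 FPKM, against 1.37 FPKM, and the lambda interferon receptor gene Il28ra fell to 0.770 FPKM, against 1.45 FPKM. Of these 6, Uba7 alone kept its direction against the other control, where it had 9.26 FPKM. The other control held 2.41 FPKM of Irf5, 119 FPKM of Psmb9, 7.83 FPKM of Cd274, 3.39 FPKM of Trim34a and 0.131 FPKM of Il28ra.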

How the data were processed

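RNA-seq of 6 mouse leukemia samples was analysed from 2 tables. Reads were aligned with Bowtie 0.12.2 to mm9 and groups compared with Cuffdiff, per the submitters' processing notes; the Cuffdiff version, the gene annotation and the strand setting were not stated in the sources used here. The deposited FPKM values are the authors', 1 per group. The p-values and q-values deposited by the authors come from their Cuffdiff test of genes with status OK, called tested here. Values per library and depth are not used here, so no SD, interval or own test was computed, and exact zeros are given as listed at 0.

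The members, gene lists and roles were chosen with earlier results of these data known. Of the members, those with q under 0.05 in either table or at 1 FPKM or more in both controls were to be given in full; the other 5 are given too. Pathway genes are named when among the 8 largest changes with a mean of at least 1 FPKM in a comparison, or as the core of the pathway. No p was adjusted over a list. Some genes that the rule names are not reported here. Symbols not in the tables were matched through RefSeq synonyms.

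Transcript lengths are the longest GENCODE vM21 transcript per symbol, found for 97.9% of rows, and the length trend is the median log2 fold in 20 bins over 5861 genes that reached 10 FPKM in each control. The tables' gene starts were raised by 1, since their spans match RefSeq lengths as 0-based starts in 6275 of 19307 genes and as 1-based starts in 432. Promoters are on GRCm38.p6, another build than mm9, and were matched by symbol only. Folds, calls, trend and motif search were tested on simulated data. The results were recomputed with q under 0.01, with at least 1 FPKM in each control, with the other control column, with pseudocounts of 0.01 and 1, and without the length trend. Folds were also centred on the median of tested genes that reached 1 FPKM in either column of the same comparison. Python 3.11.15, pandas 2.3.3, numpy 2.4.6, scipy 1.17.1 and matplotlib 3.10.9 were used.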

Additional observations from a re-analysis of the deposited data

How the results depend on the processing

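The tables hold 1 value per group, so no result has a replicate spread, no sample could be left out, and depth cannot be judged. No paired analysis was possible because the columns carry no replicate numbers. With CBD, 12 of the 17 members that rose had q under 0.01, 9 had at least 1 FPKM in each control and 17 were above the other control; the 1 that fell, Adar, gave 0 at q under 0.01 and 0 below the other control. With 4-OHT, 6 of the 16 that rose were above the other control, and the 2 that fell gave 1 at q under 0.01, 1 at 1 FPKM or more in both controls and 1 below the other control. Of the pathway genes, 3 of the 5 that fell with CBD had q under 0.01, while with 4-OHT 12 of the 37 that rose and 3 of the 7 that fell kept their direction against the other control. The other counts stayed within 1.5 times.

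The median log2 fold of tested members with CBD was 1.10, and 0.72 with a pseudocount of 1, 0.74 for members at 1 FPKM or more in both controls and 1.46 against the other control. It was 0.91 centred on the median of tested genes that reached 1 FPKM in either column, and 0.98 with the length trend removed. With 4-OHT it was 0.24, and -0.14 against the other control, the 1 setting in which it changed sign. Against the other control the log2 folds with 4-OHT of genes called against their own were -0.35 for Irf1, -0.96 for Isg15, -0.14 for Oas3, -0.42 for Oasl1, -0.33 for Ifi35, -0.14 for Ifih1, -0.062 for Ddx58, -0.54 for Bst2, -0.26 for Parp9, -0.25 for Adar and 0.66 for Xaf1. Among the 18 members called with CBD, Adar alone changed sign, to 0.20 against the other control and to 0.12 with the length trend removed. No called member changed sign under either other pseudocount or centring, but folds of genes low in the control moved by over 1.5 times: with a pseudocount of 1 the log2 fold with CBD was 0.83 for Oas2 and 0.77 for Cmpk2, and with 0.01 it was 4.35 for Oas2 and 4.02 for Cmpk2. With 4-OHT and a pseudocount of 1, Stat2 (0.93) exceeded Irf7 (0.73). The cause of these differences was not tested.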
